A study of Xenopus tropicalis with 40 samples.

Results

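The exons described here are skipped microexons in a catalogue of transcripts from embryos of the western clawed frog Xenopus tropicalis. Internal exons were called microexons up to a length of 27 bases. Such an exon counted as skipped where the same locus also held an intron that ran from the end of the exon upstream of it to the start of the exon downstream of it. Exons were told apart by their exact ends. There were 951 such exons at 600 loci, among 208695 distinct internal exons in all and 24978 skipped exons of all lengths. They were chosen by exon length and by the presence of the skipping intron, so both are a description and not a finding. Of all internal exons 12.0% were called skipped, and of the 5834 microexons 16.3% were.

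The study sequenced polyadenylated RNA from whole embryos of an outbred strain, from the 2-cell embryo to the tadpole of stages 44 and 45. Its 40 libraries fall into 23 stages and 2 clutches, with 16 libraries of 14 stages in clutch 1 and 24 libraries of 22 stages in clutch 2. The gene models analysed here are 1 catalogue of 159469 transcripts at 31388 loci, pooled over all libraries. No value belongs to a single stage, clutch or tissue. Depth per library is unknown, and no value given here has replicates. Numbers of transcripts count models of this catalogue, annotated ones among them, and are not abundances. Without annotated models 946 skipped microexons were found, against 951 with them.

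Microexons are exons so short that they add only a few amino acids to a protein. In mammals many are included in neurons under the splicing regulator SRRM4 and lie in genes of vesicle traffic, the cytoskeleton, cell adhesion and synapses, and others are used in muscle. An exon whose length is a multiple of 3 can be included or skipped without a shift of the reading frame downstream of it. An exon of another length shifts the frame where it lies inside coding sequence. The coding ends of these gene models are the transcript ends, so whether an exon lies in a coding or an untranslated region was not measured.

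Lengths that are multiples of 3 stood out from their neighbours. The length held by the most skipped microexons was 27 bases, with 153 exons, followed by 24 bases with 111 and 21 bases with 104. The lengths between them held far fewer, with 44 exons of 26 bases, 56 of 25, 50 of 23 and 35 of 22. The same steps were present among shorter ones: 42 exons had 9 bases, 50 had 12, 47 had 15 and 72 had 18, against 11 each with 10, 11 and 13 bases. On average a length divisible by 3 held 66.6 exons and any other length 19.6. From 6 to 27 bases each multiple of 3 held more exons than either neighbour within the limit, while 7 exons had 3 bases and 10 had 4. Only 66 of the 951 exons had 8 bases or fewer, and the shortest had 1 base. An aligner must place such an exon between introns on the strength of very few bases, and how far this limits the count of the shortest exons was not tested.

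**Figure D1:**
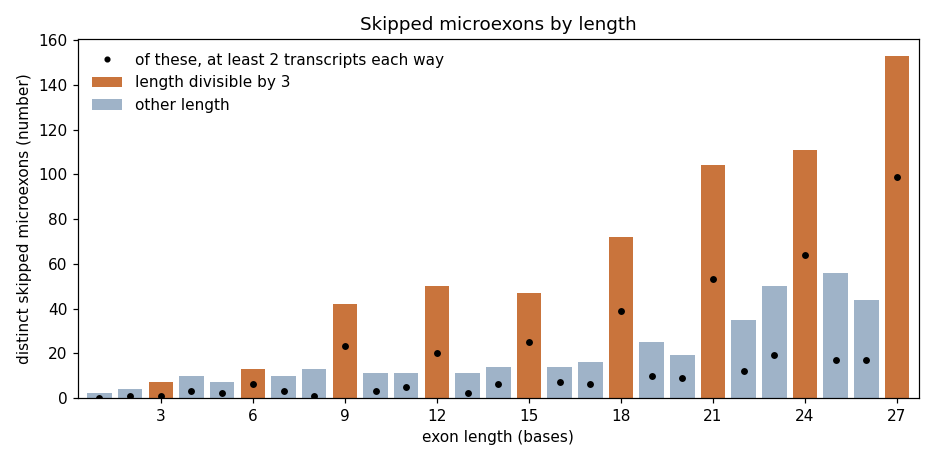
Number of distinct skipped microexons (vertical axis) at each exon length in bases (horizontal axis). Bars are all exons, coloured by whether the length is divisible by 3, and black dots are those with at least 2 transcripts that include and 2 that skip the exon; the bars at 21, 24 and 27 bases reach 104, 111 and 153.

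The limit of 27 bases cuts a continuous distribution. Just inside it were 44 skipped exons of 26 bases and 153 of 27 bases, and just outside it 62 of 28 bases, 55 of 29 bases and 133 of 30 bases.

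A length divisible by 3 was more frequent among skipped microexons than among microexons that no intron spanned and than among longer skipped exons. Of the 951 skipped microexons 599, or 63.0% (Wilson 95% interval 59.9% to 66.0%), had such a length. The share was 43.8% (41.4% to 46.2%) of 1601 microexons spanned by no intron of their locus, a difference of 19.2 points (Fisher's exact test, two-sided, odds ratio 2.18, adjusted p = 7.64e-21 over 3 comparisons). It was 51% (49.1% to 52.8%) of 2898 skipped exons of 28 to 51 bases, 12.0 points lower than among skipped microexons (same exact test, odds ratio 1.64, adjusted p = 1.04e-10). It was 45.4% (44.7% to 46.1%) of 21129 skipped exons of over 51 bases, 17.6 points lower than among skipped microexons (same exact test, odds ratio 2.05, adjusted p = 6.24e-26). Over skipped exons of all lengths the share was 46.7%, and over all internal exons 39.1%. Among the lengths from 1 to 27, 9 (33.3%) are multiples of 3.

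Exons of 1 locus are not independent, so these p-values describe the catalogue and the intervals cover counting error only. With 1 exon per locus and class the differences were 21.8, 13.1 and 18.9 points (unadjusted exact p = 1.44e-18, 2.63e-08 and 4.12e-19). A remaining class of 3282 microexons was spanned by an intron with other ends, so that skipping with the same flanking exons was not seen. Their share of lengths divisible by 3 was 41.6% (39.9% to 43.3%).

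**Figure D2:**
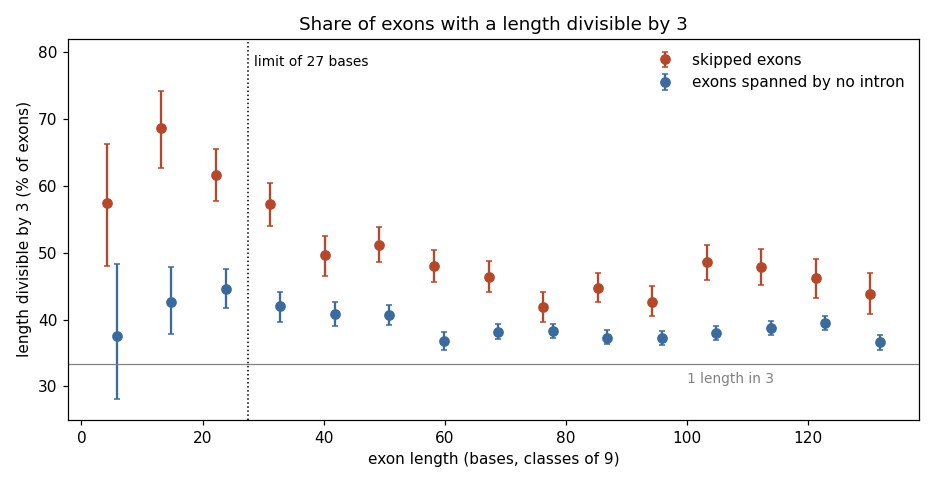
Percent of exons with a length divisible by 3 (vertical axis, Wilson 95% intervals) in classes of 9 bases of exon length (horizontal axis), for skipped exons and for exons spanned by no intron. Skipped exons of 10 to 18 bases reach 68.7%, those of 73 to 81 bases 41.9%, and exons spanned by no intron stay between 36.6% and 44.6%.

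Across length classes of 9 bases, the share among skipped exons was 57.4% (48.0% to 66.3%) for 1 to 9 bases, 68.7% (62.7% to 74.2%) for 10 to 18 bases and 61.6% (57.7% to 65.5%) for 19 to 27 bases. It was 57.3% (54.0% to 60.5%) for 28 to 36 bases and 49.6% (46.6% to 52.5%) for 37 to 45 bases. The intervals of neighbouring classes overlapped up to 36 bases, and whether the limit of 27 bases marks a step in this share was not tested. Among exons spanned by no intron the same first 3 classes had 37.6%, 42.7% and 44.6%. For skipped microexons of 1 to 8 bases alone the share was 30.3% (20.6% to 42.2%) of 66. For those of 9 to 15 bases it was 74.7% (68.0% to 80.4%) of 186. The multiples of 3 are 3 and 6 in the former class and 9, 12 and 15 in the latter. They are thus a smaller part of the lengths in the former, and these shares are not directly comparable.

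Exons with more support had more often a length divisible by 3. At least 2 transcripts with the exon and at least 2 with the skipping intron were present for 453 of the 951 skipped microexons, or 47.6%, at 314 loci. Over skipped exons of all lengths this share was 38.4%. Of these 453 exons 72.8% (68.6% to 76.7%) had a length divisible by 3, and of the other 498 exons 54.0% (49.6% to 58.3%). The share was higher with such support among longer skipped exons too. It was 61.5% of 1230 supported exons of 28 to 51 bases, against 51% of all of that length. For exons of over 51 bases it was 51.8% of 7902, against 45.4%. No test is given, since the rule used the skipping introns. Support by 1 transcript was common: 319 skipped microexons were in 1 transcript, 303 were skipped in 1, and 124 had 1 of each. At the other end, 158 exons had at least 5 transcripts each way and 62 had at least 10.

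Skipping was the more frequent form for many of these exons. More transcripts had the skipping intron than the exon for 410 of the 951 exons, or 43.1%, fewer did for 362, and 179 had equal numbers. Among skipped exons of 28 to 51 bases 34.8% had more transcripts that skipped, among those of over 51 bases 21.7%, and over all skipped exons 24.0%. The median was 3 transcripts with the exon and 3 with the skipping intron for microexons, against 4 and 2 for skipped exons of over 51 bases. This too is given without a test. Exons with different ends were counted apart, so variants of 1 exon could be set against the same skipping transcripts. At the spectrin gene sptan1, 5 variants of 1 exon, in 1 to 3 transcripts each, were skipped in 38. That exon itself was in 75 and skipped in 39. The part of such variants in the 43.1% was not tested. With at least 2 transcripts each way, 215 of 453 exons had more that skipped and 183 more that held them.

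**Figure D3:**
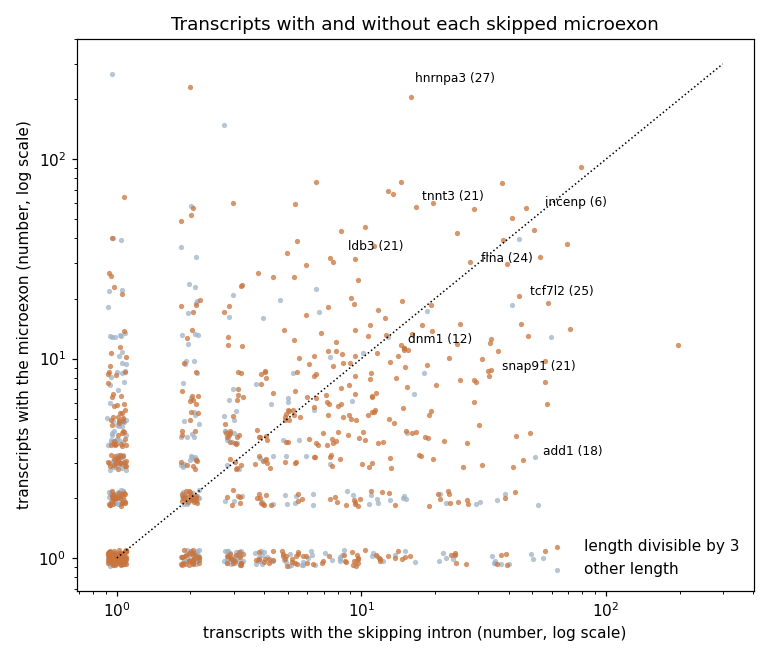
Number of transcripts with each skipped microexon (vertical axis, log scale) against the number with the skipping intron (horizontal axis, log scale), 1 point per exon with slight jitter, coloured by whether the length is divisible by 3; labels give gene and length in bases and the dotted line marks equal numbers. Exons of hnrnpa3 (222 with, 15 skipping) and add1 (3 with, 50 skipping) lie far from that line on opposite sides.

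Some of these exons overlapped one another. No other exon of the locus overlapped 362 of them (38.1%, against 41.7% over all skipped exons). This share was 36.2% for skipped exons of 28 to 51 bases and 42.7% for those of over 51 bases. The grouping below is not given for longer skipped exons. A further 116 overlapped other microexons only, and 473 overlapped a longer exon. Merging members that overlap each other left 797 groups, 717 of them with 1 member. The other 80 groups held 234 members, and in 63 of them the members shared a start or an end. The share divisible by 3 was 76.8% (72.2% to 80.8%) without overlap, 63.8% (54.7% to 72.0%) with overlapping microexons only and 52.2% (47.7% to 56.7%) with a longer exon. With no overlap and at least 2 transcripts each way it was 83.7% (78.1% to 88.1%) of 209 exons. In the 31 groups of 3 or more members it was 46.3% of 136. Without overlap the share was higher among longer skipped exons too. It was 57.6% of 1049 such exons of 28 to 51 bases, against 51% of all of that length. For exons of over 51 bases it was 47.3% of 9017, against 45.4%. The share with both no overlap and such support is not given for longer skipped exons.

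The gene rpl13a, which encodes a protein of the large ribosomal subunit, held the largest such group. Positions here are scaffold positions of a genome build that the sources do not name. Its 9 members lay on the plus strand of scaffold GL173345 between 222840 and 222857, had 9 different starts and 1 shared end, and measured 10 to 18 bases each. Each was in 1 to 5 transcripts, and 3 transcripts had the skipping intron. Similar sets with 1 shared end were present at ptma, which encodes the acidic nuclear protein prothymosin alpha, with 8 members of 11 to 20 bases, at the calpain inhibitor gene cast with 6, and at the Krebs cycle gene dlst with 5. The genes cast and dlst were chosen after their values were seen. Such sets add many lengths to the count from a single place in a gene. The loci of rpl13a and ptma, and those of tnnt3, fus and ppfia1 below, joined 2 or 3 annotated genes.

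**Figure D4:**
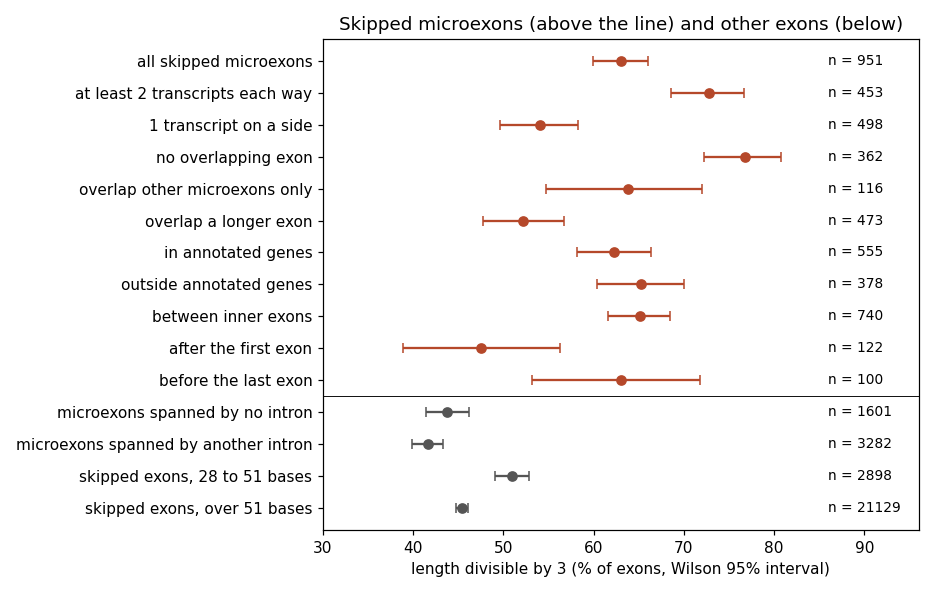
Percent of exons with a length divisible by 3 (horizontal axis, Wilson 95% intervals) in subsets of skipped microexons above the line and in other exon sets below it, with the number of exons at the right. The subset without an overlapping exon is at 76.8% and the subset after the first exon at 47.5%, while microexons spanned by no intron are at 43.8%. The label between inner exons stands for all members outside the subsets after the first and before the last exon.

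Most skipped microexons were not confined to the place next to a first or last exon. For 740, neither the place directly after the first exon nor that directly before the last held in all of their transcripts. Of these, 65.1% (61.6% to 68.5%) had a length divisible by 3. The same split is not given for other exons. Directly after the first exon in all transcripts that held them lay 122, with 47.5% (38.9% to 56.3%), and directly before the last exon lay 100, with 63.0% (53.2% to 71.8%), some of them in both positions. The introns around them were shorter at the median than around longer skipped exons, which was not tested. The median intron upstream was 669 bases (quartiles 175 and 1696) and downstream 668 bases (159 and 1822). Around skipped exons of 28 to 51 bases the medians were 928 and 895 bases, around those of over 51 bases 1062 and 1062 bases, and over all introns 1045 bases. Introns under 100 bases flanked 13.8% of the microexons upstream and 15.6% downstream, against 5.90% and 5.41% for skipped exons of over 51 bases. With at least 2 transcripts each way the medians for microexons were 820 and 835 bases.

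Some skipped microexons followed each other directly. Next to another microexon in a transcript lay 150 of the 951, or 15.8%, and 87 lay next to another member. These formed 69 pairs at 24 loci, of which 34 were seen in at least 2 transcripts and 50 had a summed length divisible by 3. A large part of these pairs lay at hnrnpa1 and tnnt3, where end variants of the same exons were paired repeatedly. The same shares are not given for other exons. The fast troponin T gene tnnt3, whose protein ties the troponin complex to tropomyosin, had exons of 12 and 18 bases next to each other in 38 transcripts, and of 15 and 12 bases in 30. The tnnt3 exon of 18 bases did not have at least 2 transcripts each way. The elastin gene eln2, chosen after its values were seen, had 2 exons of 27 bases next to each other in 31 transcripts.

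In transcripts of annotated genes lay 555 members, in 338 genes. At loci outside annotated genes lay 378, or 39.7%, at 257 loci, and over all skipped exons 39.4% lay at such loci. The remaining 18 lay at annotated loci but in no transcript assigned to the gene on its strand. The share divisible by 3 was 65.3% (60.4% to 70.0%) outside annotated genes and 62.3% (58.2% to 66.3%) within them. An annotated junction chain included the exon but did not skip it for 19 members, skipped it for 28 and did both for 1, so that such chains included or skipped 5.05% of the 951. Most members could not be assessed in this way, because no transcript at their locus matched an annotated chain. Relative to annotated chains, 20 of the 555 members were annotated exons, 29 lay inside an annotated intron, 8 overlapped an annotated exon with other ends and 8 lay beyond the annotated ends. For 490 no transcript at the locus matched the annotated chain, and of the 65 others the 20 annotated exons made up 30.8%. Of the 29 in annotated introns 23, or 79.3%, had a length divisible by 3. The share was 60% of the 20 annotated exons and 61.6% of the 490 without a matched chain. It was 62.5% of the 8 beyond the annotated ends and 50% of the 8 that overlapped an annotated exon. These differences were not tested.

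The number found in a gene moved with its number of isoforms. Of 7901 annotated genes with at least 3 exons, 338 (4.28%) had a skipped microexon and 192 (2.43%) had one with at least 2 transcripts each way. The first share was 0.146% of genes with 0 or 1 multi-exon isoform, 1.46% of genes with 2 to 5 and 4.41% with 6 to 19. It was 14.2% with 20 to 49 and 38.8% of the 160 genes with 50 or more. A member needs both a transcript that holds it and another that skips it, so this rise is in part set by the rule. The median gene with a member had 20 isoforms, against 5 over all 7901 genes. Members were spread over many loci, with 462 loci holding 1, 77 holding 2 and 61 holding 3 or more. The 10 loci with the most members held 131, or 13.8%.

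The gene with the most members was hnrnpa1. It encodes an RNA-packaging and splicing protein and had 26 members, 19 of them divisible by 3, among 593 isoforms. The fibrillar collagen gene col1a1, listed in the gene models under a provisional symbol, had 18, of which 7 were divisible and 4 had at least 2 transcripts each way. Then came ptma with 14, tnnt3 with 12, the spectrin gene sptan1 with 11, hnrnpa3 with 10 and rpl13a with 9. The genes ptmap12, fus, hnrnpa2b1 and incenp had 7 each. Some of the ptma members were also assigned to the other annotated gene of its joined locus. All 10 members of hnrnpa3 had a length divisible by 3, against 2 of 7 at incenp. At least 2 transcripts each way were present for 2 of the 10 and for 4 of the 7. Overlapping variants at a single place made up 4 of the 10 and 6 of the 7, so these are not separate observations. No member at hnrnpa1, col1a1, ptma, tnnt3, rpl13a, ptmap12, hnrnpa2b1 or incenp was free of an overlapping exon.

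Exons were also ranked by support, the smaller of the numbers of transcripts that held and skipped them. First came an exon of 24 bases at hnrnpa1 (GL172797, 1977446 to 1977469, minus strand), which 90 transcripts held and 86 skipped. It overlapped 34 other exons of the locus. An exon of 6 bases at incenp, which encodes the scaffold of the chromosomal passenger complex, lay on the plus strand of GL172942 from 120045 to 120050. It was in 53 transcripts and skipped in 51, between introns of 792 and 396 bases, and 5 other members overlapped it, each with 1 to 4 transcripts. It was the shortest of the leading exons and could add 2 amino acids where it is coding.

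The sptan1 exon of 18 bases, on the minus strand of GL172790 from 269510 to 269527, was in 75 and skipped in 39. At col18a1, a basement membrane collagen gene, an exon of 27 bases was in 41 and skipped in 36. At flna, which encodes the actin crosslinker filamin A, an exon of 24 bases on the minus strand of GL172911 from 727744 to 727767 had 28 transcripts each way. These exons were thus held and skipped in similar numbers of transcripts, except that of sptan1. Those of col18a1 and flna overlapped 3 and 4 other exons of their loci, longer ones among them.

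The tnnt3 exon of 12 bases on the plus strand of GL173055 from 557025 to 557036 was in 44 transcripts and skipped in 23. At tcf7l2, which encodes a transcription factor of the Wnt pathway, the leading exon had 25 bases, was in 19 transcripts and was skipped in 44. It lay late in the transcripts on the plus strand of GL173130, from 422442 to 422466, and its length is no multiple of 3. A longer exon of the locus overlapped it. An exon of 18 bases at abi2, which encodes a subunit of the actin-regulating WAVE complex, was in 18 transcripts and skipped in 19. The locus of abi2 joined 3 annotated genes, and some of these transcripts were assigned to cyp20a1.

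Among exons free of any overlap, 27 had at least 10 transcripts each way, and 24 of them had a length divisible by 3. The other 3 were at pfkfb3, a regulator gene of glycolysis, with 23 bases, at the kinase gene wnk1 with 26 bases and at the myosin light chain gene myl1 with 25 bases. These were named for this small count after their values were seen. The pfkfb3 exon was in 14 transcripts and skipped in 13, that of wnk1 in 13 and skipped in 65, and that of myl1 in 16 and skipped in 19. A like count is not given for longer skipped exons.

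Lists of genes by role asked how often the kinds of genes known for microexons in mammals held one here. The lists lean on such genes, so their counts are no independent evidence of a preference. Of 27 genes of vesicle traffic with at least 3 exons, 9 (33.3%) had a skipped microexon, against 4.28% over all annotated genes. The shares were 6 of 20 (30%) for the cytoskeleton and spectrin scaffold, 6 of 17 (35.3%) for kinases, phosphatases and GTPase regulators, and 7 of 18 (38.9%) for axon and synapse adhesion proteins. They were 13 of 28 (46.4%) for muscle, 11 of 25 (44.0%) for hnRNP and SR proteins, 3 of 26 (11.5%) for regulators of exon choice and 4 of 31 (12.9%) for translation. The median isoform numbers of these lists, in the same order, were 16, 39.5, 23, 17, 14, 41, 18 and 25, against 5 over all genes, and the part of isoform number in these shares was not tested. The list names are loose. Among the genes counted, cirbp and ybx1 of the hnRNP and SR list and cpeb3 of the exon choice list are not of the named kind. They are named for this reason only.

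In the genes of vesicle traffic 7 of 12 members were free of overlap, and 8 had more transcripts that skipped them than held them. Over all 951 skipped microexons these shares were 38.1% and 43.1%. Such counts, for this list and for those below, were not tested against these shares and are not shown to be traits of a list. The gene snap91, which encodes a clathrin assembly protein of nerve endings, had an exon of 21 bases on the plus strand of GL173011 from 90990 to 91010, in 8 transcripts and skipped in 34. A second snap91 exon of 15 bases, from 103192 to 103206, was in 13 transcripts and skipped in 5. Of 18 transcripts that resolved both exons, 13 held the second alone and 5 held neither. None of the transcripts with the first exon was among these 18, so whether both are used together cannot be read from them. An exon of 12 bases at dnm1, whose dynamin product cuts vesicles from the membrane, was in 11 transcripts and skipped in 14.

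The membrane-bending protein gene bin1 had an exon of 24 bases in 15 transcripts that 9 skipped, and fnbp1, which links membranes to actin, one of 15 bases in 5 that 19 skipped. The vesicle SNARE gene vti1a had an exon of 21 bases with 4 transcripts each way. The clathrin adaptor subunit gene ap2m1 had one of 6 bases in 3 transcripts, skipped in 6. A longer exon of its locus overlapped that exon. Over the list, 9 of 12 members had a length divisible by 3, against 63% of all skipped microexons. The counts of such lengths, in this list and in those below, were not tested against that share.

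In cytoskeletal genes 11 of 18 members were at sptan1, 5 of them variants of its exon of 18 bases in 1 to 3 transcripts each, which 38 skipped. The other genes of the list had 7 members, each with more transcripts that skipped it than held it, against 6 of 11 at sptan1. In signalling genes 6 of 9 members had more transcripts that skipped them. At clasp1, which encodes a microtubule plus-end protein, exons of 27 and 24 bases were in 10 and 8 transcripts and skipped in 31 and 32. Of 40 transcripts that resolved both, 5 held both, 3 the exon of 24 bases alone, 5 that of 27 bases alone and 27 neither. The adducin gene add1, whose product caps actin filaments at the spectrin network, had an exon of 18 bases in 3 transcripts, skipped in 50. At sptan1 a further exon of 15 bases, free of overlap, was in 18 transcripts and skipped in 58.

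The guanine nucleotide exchange factor gene vav2 had 2 exons of 15 bases, in 10 and 4 transcripts and skipped in 24 and 44. Of 34 transcripts that resolved both, 22 held neither and 1 held both. The scaffold gene ppfia1 had an exon of 27 bases in 11 transcripts, skipped in 31, and the receptor phosphatase gene ptprs one of 27 bases in 6, skipped in 11. The kinase gene src, which in mammals has neuronal forms with microexons, had an exon of 15 bases on the minus strand of GL172674 from 430099 to 430113, in 5 transcripts and skipped in 9. A longer exon of the locus overlapped this src exon. Of the 9 members of the signalling list 8 had a length divisible by 3, and of the 18 of the cytoskeletal list 11, with 4 of 11 at sptan1 and 7 of 7 at the other genes.

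The named exons of adhesion and synapse genes were in 3 to 5 transcripts each, and 7 of the 11 members of the list had more transcripts that skipped them. The cell adhesion genes l1cam and nrcam had exons of 15 and 18 bases in 4 and 3 transcripts, skipped in 12 and 4. The l1cam exon, on the minus strand of GL172958 from 1273044 to 1273058, was an annotated exon. The calcium channel gene cacna1d had an exon of 27 bases in 5 transcripts, skipped in 10. The postsynaptic scaffold gene shank2 had 2 exons of 21 bases with 2 or more transcripts each way, in 4 and 5 transcripts and skipped in 5 and 2. The semaphorin receptor gene plxna1 had one of 16 bases, in 3 and skipped in 2. It was the exception in this list, in which 10 of 11 members had a length divisible by 3.

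**Figure D5:**
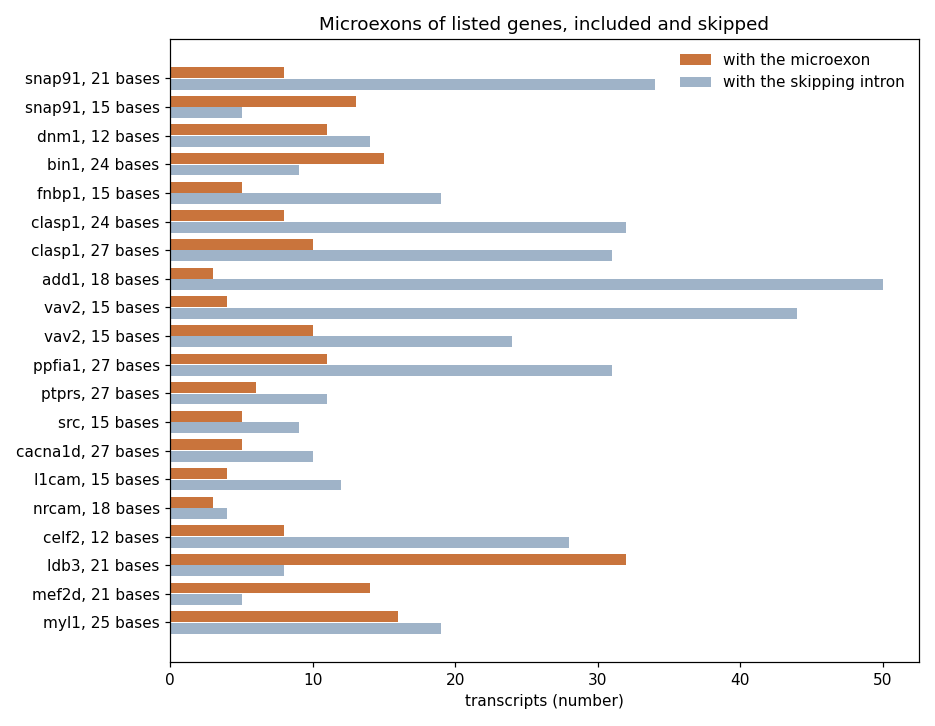
Number of transcripts (horizontal axis) with the microexon and with the intron that skips it, for selected microexons of the gene lists; each pair of bars is 1 exon, named by gene and length. The exons of add1 and vav2 have far more skipping transcripts, and that of ldb3 has 32 with the exon against 8 that skip it.

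In muscle genes 14 of 30 members had more transcripts that skipped them and 13 more that held them. The Z-disc gene ldb3 had an exon of 21 bases on the plus strand of GL172938 from 866399 to 866419, in 32 transcripts and skipped in 8. The muscle transcription factor gene mef2d had one of 21 bases in 14, skipped in 5. A second tnnt3 exon, of 21 bases, was in 57 transcripts and skipped in 16, and of 59 transcripts that resolved it and the exon of 12 bases 31 held both, 16 that of 21 bases alone, 6 that of 12 bases alone and 6 neither. The slow troponin I gene tnni1 had an exon of 7 bases in 6 transcripts, skipped in 5. Of 30 members in the list 17 had a length divisible by 3, and 12 of the 30 were at tnnt3.

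In the list of regulators of exon choice, 1 of the 3 genes with a member had at least 2 transcripts each way. This was celf2, with an exon of 12 bases in 8 transcripts, skipped in 28. Of the hnRNP and SR list 41 of 58 members had a length divisible by 3, and 26 of the 58 were at hnrnpa1. Its exon with the most transcripts lay near the start of hnrnpa3, on the minus strand of GL172799 from 44814 to 44840, with 27 bases, 222 transcripts that held it and 15 that skipped it. An exon of 21 bases at hnrnpa2b1 was in 19 and skipped in 15. One of 21 bases at fus was in 10 and skipped in 9. One of 26 bases at the splicing activator gene tra2a was in 8 and skipped in 17. These exons of hnrnpa2b1, fus and tra2a overlapped 23, 29 and 4 other exons of their loci, longer ones among them. Of the 58 members of the hnRNP and SR list, 2 were free of overlap. In the translation list the scaffold gene eif4g3 had an exon of 21 bases in 9 transcripts, skipped in 4, and rps10 one of 24 bases in 2, skipped in 37. Of that list 8 of 15 members had a length divisible by 3, and 9 of the 15 were at rpl13a.

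Loci outside annotated genes held some of the best supported exons. The leading one had 24 bases on the minus strand of GL174211 from 12992 to 13015, with 51 transcripts that held it and 43 that skipped it. One of 21 bases on the plus strand of GL172768 from 660042 to 660062 was in 41 and skipped in 74. Next came one of 19 bases, no multiple of 3, on the minus strand of GL174024 from 72400 to 72418. It was in 40 and skipped in 46. The locus on the plus strand of GL172804 from 1794607 to 1985266, with 100 transcripts of up to 30 exons, had 6 members, all of 27 bases. It is described for these members, after its values were seen. With them included, 28 of its 48 internal exons (58.3%) were multiples of 9 bases long, against 13.4% of all internal exons and 16.9% at col18a1, which had 3 members of 27 bases. The same share is not given for eln2, which also had 6 members of 27 bases, or for the fibrillar collagen genes. Whether it is particular to this locus was thus not tested. Over all loci outside annotated genes, with at least 2 transcripts each way, 79.2% (72.4% to 84.6%) of 168 exons had a length divisible by 3.

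At some loci with several separate members, transcripts combined them in different ways. There were 307 pairs of members without overlap at 52 loci, each with at least 2 transcripts each way. Of these, 124 pairs were resolved in at least 5 transcripts. All 4 combinations (both, either alone, neither) were present for 46, 3 for 41, and 2 or fewer for 37. Many of these pairs involve end variants of the same exon, as at hnrnpa1, sptan1 and tnnt3. Every pair among the members of a locus was counted, so loci with many members weigh most. A large part of the pairs with all 4 combinations lay at eln2 and at the locus on GL172804 with 6 members. At eln2, where 6 members of 27 bases were in 29 to 44 transcripts and skipped in 5 to 11, the first and the last of them were both present in 27 of 39 transcripts, the first alone in 5, the last alone in 5 and neither in 2.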

How the data were processed

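Polyadenylated RNA of whole embryos was sequenced with the strand kept, per the labels' protocols. Bowtie, TopHat and Cufflinks were used, per the submitters' processing notes. Tool versions, genome build and annotation: not given in the sources used here. The authors deposited gene models pooled over the series, with exon ends on scaffolds, and a table of transcripts. In that table the deposited values headed FPKM are a score of at most 1, called relative weight here, and the deposited coverage is a signal of unknown scale that was not used.

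Positions are counted from 1. Transcripts whose Cufflinks class ties them to an annotated gene on its strand gave gene names. Provisional symbols were replaced through the RefSeq table of assembly UCB_Xtro_10.0, used for names only. By symbol or gene number it held 7525 of 8329 gene symbols and 311 of the 338 genes with a member. A microexon counted as never skipped where no intron of its locus spanned it.

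Shares carry Wilson 95% intervals and were compared with Fisher's exact test (SciPy 1.17.1), with Benjamini-Hochberg adjustment over 3 comparisons. The calling step was run on simulated loci without overlapping exons or end variants and returned the simulated skips. This checks only that the definition was applied, and not the members found here. Named genes are those with the most members (10, with ties), those with the most support (10), and up to 6 genes per list with at least 2 transcripts each way; others are marked. A gene that this rule names is not reported here. The members and the 8 lists were chosen with earlier results of these data known. Exon sequences were not used here.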

Additional observations from a re-analysis of the deposited data

How the results depend on the processing

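All 3 differences in the share of lengths divisible by 3 kept their direction and stayed past the threshold (exact p under 0.05) under each alternative run for them. The difference from microexons spanned by no intron ranged from 16.1 to 32.6 points, that from skipped exons of 28 to 51 bases from 10.6 to 19.2 points, and that from those of over 51 bases from 17.3 to 29.5 points. The comparison with 194 microexons present in each of at least 3 spanning transcripts, which gave 16.1 points, and that with all other microexons were chosen after seeing the data.

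The number of skipped microexons, 951, depended on the definition. It was 453 with at least 2 transcripts each way, 532 where only transcripts at a relative weight of 1 counted, 362 without exons that overlap another exon, 252 with a limit of 15 bases and 3849 with a limit of 51 bases. It was 1066 where the flanking exons could come from different transcripts, an alternative chosen after seeing the data. Of the share of 63.0%, the value moved to 72.8% with at least 2 transcripts each way, to 76.8% without overlapping exons, to 67.0% with 1 exon per group of overlapping members (chosen after seeing the data) and to 53.9% with a limit of 51 bases. The cause of these moves was not tested. No paired analysis was possible because no value belongs to a single library. Library depth is unknown, so its part in which exons were found was not tested.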
